A study of Mus musculus with 22 samples.

Results

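Tmem163, Alox8, Tiam2 and Fstl4 are 4 mouse genes chosen by their measured difference between Prdm16 conditional knockout (cKO) and control hearts in both ventricles, with earlier results of these data known. They were found by symbol among the 54356 genes measured, and all 4 passed the filter on low counts in each test. Since the fold changes within the left and within the right ventricle made that choice, they are given here as a description, without a test. The whole heart libraries, the comparison of the left with the right ventricle, and the transcripts that hold the reads were not part of that choice. Those libraries were nevertheless among the known results, and the comparison of the ventricles shares its libraries with the choice, so these tests are not independent support for it.

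The libraries came from hearts at embryonic day E13.5, of the strain labelled C57BL/6, and were sequenced as bulk RNA. The cKO groups hold 3 whole hearts, 4 left ventricles and 4 right ventricles with the label Prdm16 conditional knockout, and the controls are littermates in the same numbers, labelled Mock and titled WT. The Cre driver and the floxed allele are not given in the sources used here, and neither is the Cre or allele status of the controls. The labels do not tie left to right ventricles of one heart or name the animals, so p-values measure the spread between these libraries.

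The transcription factor PRDM16, of the PR domain family, binds DNA through zinc fingers, and the series title places it in the compact myocardium, the dense outer wall of the ventricle. Tmem163 encodes a membrane protein that binds and carries zinc, known from synaptic vesicles and lysosomes. Alox8 encodes a lipoxygenase, an enzyme that adds oxygen to arachidonic acid and is known from mouse skin. Tiam2, also called STEF, encodes a guanine nucleotide exchange factor that switches on the small GTPase Rac, through which cells remodel their actin and their contacts. Fstl4 encodes a secreted protein of the follistatin-like family, whose members hold cysteine-rich domains related to those of SPARC, and in mouse brain it was found to bind the precursor of the growth factor BDNF.

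Between 38590751 and 62004017 reads per whole heart and between 14508722 and 22830716 per ventricle were assigned to transcripts. Prdm16 checks the labels: its level was 19.0 to 22.28 CPM (reads scaled to the size of the library) in whole heart cKO libraries against 37.38 to 45.29 in controls, 21.56 to 23.36 against 45.42 to 56.18 in the left ventricle, and 22.2 to 25.78 against 37.49 to 44.31 in the right. Whole heart control 1 stood apart, with 19478 genes detected against 22826 to 27146 in the others. So did right ventricle control 2, with 25.79 TPM (abundance scaled to transcript length and library) of the mesenchymal gene Meox1 against 1.45 to 1.89 in the other right ventricle controls. Results that these libraries enter were recomputed without them.

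The genes lie on 3 chromosomes (GRCm38). Tmem163 (ENSMUSG00000026347.13) spans chr1:127486546-127679548 on the minus strand and Tiam2 (ENSMUSG00000023800.15) spans chr17:3326573-3531344 on the plus strand. Alox8 (ENSMUSG00000020891.11, chr11:69183932-69197843, minus strand) and Fstl4 (ENSMUSG00000036264.9, chr11:52764634-53188538, plus strand) share chromosome 11. The 250 bases before a RefSeq start site of each gene (GRCm38.p6) are printed because they let the promoters of genes that moved together be set side by side. The windows are chr1:127678022-127678271 (minus strand), chr11:69197844-69198093 (minus), chr17:3396957-3397206 (plus) and chr11:52764456-52764705 (plus), each written 5′ to 3′, with each match to the E-box CANNTG in capitals:
Tmem163: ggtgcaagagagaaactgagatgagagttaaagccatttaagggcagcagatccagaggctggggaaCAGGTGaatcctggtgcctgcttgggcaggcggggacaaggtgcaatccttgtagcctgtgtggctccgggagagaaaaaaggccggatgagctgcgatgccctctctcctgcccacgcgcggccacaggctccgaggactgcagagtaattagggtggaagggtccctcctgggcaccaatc
Alox8: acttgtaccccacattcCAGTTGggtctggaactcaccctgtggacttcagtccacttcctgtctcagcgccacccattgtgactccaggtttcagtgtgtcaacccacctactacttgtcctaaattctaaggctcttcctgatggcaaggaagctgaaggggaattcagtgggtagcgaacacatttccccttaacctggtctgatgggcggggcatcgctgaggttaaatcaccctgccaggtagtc
Tiam2: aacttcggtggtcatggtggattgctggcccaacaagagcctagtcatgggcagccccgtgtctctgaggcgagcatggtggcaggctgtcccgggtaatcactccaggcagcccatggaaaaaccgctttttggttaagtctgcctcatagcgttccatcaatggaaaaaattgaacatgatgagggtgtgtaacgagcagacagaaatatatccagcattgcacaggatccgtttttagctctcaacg
Fstl4: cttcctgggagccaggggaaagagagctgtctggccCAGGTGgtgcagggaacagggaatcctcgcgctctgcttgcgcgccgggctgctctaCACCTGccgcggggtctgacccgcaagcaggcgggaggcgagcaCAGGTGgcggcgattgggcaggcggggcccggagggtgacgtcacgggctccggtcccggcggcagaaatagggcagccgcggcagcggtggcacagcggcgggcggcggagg

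The Tmem163 window ends at the start of Tmem163-203 and the Alox8 window at the start of Alox8-201, the transcripts that held most of each gene's reads. The Fstl4 window ends 72 bases past the start of Fstl4-201 in GENCODE. The Tmem163 and Tiam2 windows lie within the annotated span of their genes, since Tmem163-205 and Tiam2-202 start further upstream, and the Alox8 and Fstl4 windows hold or border the gene's first base. The Tiam2 window belongs to Tiam2-201, while the leading transcript Tiam2-202 starts 70634 bases away and is not shown. The Tmem163 window has 1 E-box, Alox8 has 1, Fstl4 has 3 and the Tiam2 window shown has none, whereas the windows before 2 further RefSeq starts of Tiam2, not printed, have 4 and 1. At least 1 is held by 66.2% of 32851 promoter windows of that length. Other motifs were searched on both strands. The T-box site GGTGTNA is in 8.61% of all windows, and the NKX2-5 site TNAAGTG is in 10.1%. A GATA factor site was searched as AGATAA and is in 9.99%. The box TATAAA is in 12.4%. None of these 4 sets of letters was found in the 4 windows.

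In whole hearts all 4 genes rose in the cKO (edgeR's quasi-likelihood F test, threshold 0.05 on the adjusted p), where 1.96% of the 19160 genes tested were called higher and 2.07% lower (4.03% in all). Tmem163 and Alox8 rose 5.61-fold and 5.59-fold, Tiam2 3.58-fold and Fstl4 1.74-fold. For each gene, all 3 cKO libraries lay above all 3 controls, an order that 13.8% of the genes tested had. From highest to lowest log2 fold change among the 19160 genes, Tmem163 stood 39th, Alox8 40th, Tiam2 105th and Fstl4 1029th.

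Tmem163, the zinc carrier, measured 45.67, 49.86 and 46.97 CPM in whole heart cKO samples, against 8.28, 7.41 and 9.68 CPM in their controls. Its log2 fold change was 2.49 (SE 0.10, 95% interval 2.25 to 2.72, adjusted p = 4.38e-05 by edgeR). No whole heart cKO library overlapped a control. Left ventricle cKO samples measured 82.36, 87.38, 86.65 and 94.8 CPM, against 9.99, 12.19, 11.92 and 13.501 CPM in their controls. On the right, cKO samples measured 62.08, 44.62, 42.91 and 39.86 CPM, against 6.05, 3.27, 6.68 and 5.86 CPM in their controls. The fitted difference, a description here, was 7.34-fold in the left and 8.68-fold in the right ventricle, and right ventricle cKO 1 was the highest of its group.

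Alox8, the lipoxygenase, measured 17.98, 16.92 and 18.76 CPM in whole heart cKO samples, against 3.81, 2.56 and 3.26 CPM in their controls. Its log2 fold change was 2.48 (SE 0.15, 95% interval 2.13 to 2.84, adjusted p = 0.000319 by edgeR). The genotypes did not overlap. Left ventricle cKO samples measured 29.56, 23.87, 28.45 and 31.87 CPM, against 2.39, 4.16, 2.54 and 4.57 CPM in their controls, a description of 8.26-fold. On the right, cKO samples measured 20.26, 7.46, 6.06 and 4.6 CPM, against 1.17, 0.84, 0.79 and 0.61 CPM in their controls, a description of 11.3-fold. These right ventricle controls held 11 to 21 reads of Alox8 each, so the fold rests on few reads. Right ventricle cKO 1 stood above the other 3, and without it the fold was 7.04.

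Tiam2, the Rac exchange factor, measured 40.37, 47.67 and 49.59 CPM in whole heart cKO samples, against 15.01, 11.69 and 11.84 CPM in their controls. Its log2 fold change was 1.84 (SE 0.12, 95% interval 1.56 to 2.12, adjusted p = 0.000476 by edgeR). Whole heart control 1 was the highest control, and the fold was 3.9 without it. Left ventricle cKO samples measured 51.65, 52.13, 58.26 and 48.69 CPM, against 13.48, 8.32, 11.84 and 11.27 CPM in their controls, a description of 4.73-fold. On the right, cKO samples measured 46.53, 38.13, 30.9 and 31.86 CPM, against 5.55, 7.19, 5.84 and 5.8 CPM in their controls, a description of 6.04-fold. The lowest cKO library of each ventricle lay far above the highest control.

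Fstl4, the follistatin-like gene, moved least. It measured 23.29, 22.57 and 22.5 CPM in whole heart cKO samples, against 13.73, 12.49 and 13.0 CPM in their controls, with a log2 fold change of 0.80 (SE 0.07, 95% interval 0.64 to 0.96, adjusted p = 0.00183 by edgeR). The call was lost on the TPM scale (limma, adjusted p = 0.0521 with 1 added before the log2 and 0.0513 with 0.1 added). Left ventricle cKO samples measured 23.59, 20.27, 21.51 and 22.4 CPM, against 10.12, 9.74, 10.33 and 10.9 CPM in their controls, a description of 2.14-fold. On the right, cKO samples measured 20.74, 15.71, 14.42 and 18.07 CPM, against 9.55, 8.43, 8.32 and 10.22 CPM in their controls, a description of 1.9-fold. The replicates of Fstl4 were close: the SD of its CPM was 1.93% of the mean in whole heart cKO libraries and 4.71% in left ventricle controls, and its widest group was right ventricle cKO at 16.2%.

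**Figure D1:**
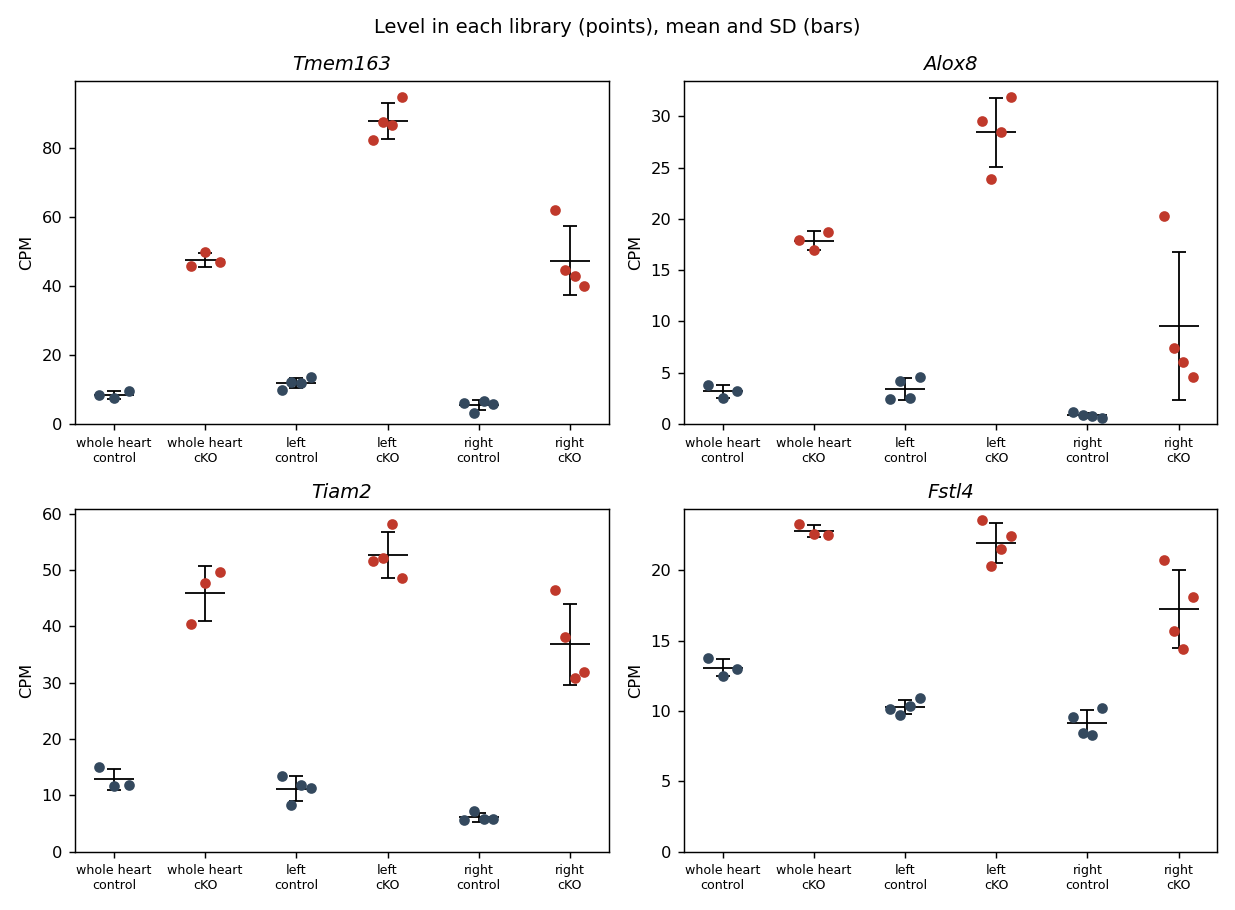
CPM of Tmem163, Alox8, Tiam2 and Fstl4 in each of the 22 libraries (points; dark blue control, red cKO), with the group mean (long bar) and SD (whiskers), on linear axes that start at 0. No cKO library overlaps a control library of the same tissue, and 1 right ventricle cKO library of Alox8 sits at 20.26 CPM above 3 at 4.6 to 7.46.

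In each ventricle the 4 genes had every cKO library above every control, an order found for 14.1% of the 16448 genes tested in the left and 7.61% in the right ventricle, where 12.3% and 6.12% were called higher, 13.4% and 4.19% lower, and 25.6% and 10.3% either way. Nothing is read from these counts, since the same contrasts chose the genes. The choice had no stated threshold. Of the genes tested, 144 had a log2 fold change over 1 in both ventricles, and these include Tmem163, Alox8 and Tiam2. Fstl4 lay just outside that line, with 1.09 in the left and 0.92 in the right ventricle. A log2 fold change over 2 in both ventricles was found for 30 genes, again with those 3 among them, and over 2.5 for 19, with Tmem163 and Alox8.

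In summed TPM, Tmem163 was the most abundant of the genes and Alox8 had the lowest control level. The noncoding Tmem163-204 of 514 bases adds much to the sum of Tmem163. By itself, Tmem163-203 had 3.1 TPM in whole heart controls and 1.52 in right ventricle controls, below Fstl4 with 3.34 and 2.11. In the order of group means, Tmem163 had 82.7 ± 3.09 TPM in left ventricle cKO (SD, n = 4), 40.1 ± 2.94 in whole heart cKO (n = 3) and 39.5 ± 9.62 in right ventricle cKO (n = 4). It had 10.4 ± 2.39 TPM in left ventricle controls, 5.62 ± 2.08 in right ventricle controls and 4.5 ± 2.12 in whole heart controls. Libraries of the whole heart and right ventricle cKO groups overlapped, and so did neighbouring control groups in this order. Alox8 had 13.6 ± 1.8 TPM in left ventricle cKO, 8.08 ± 0.451 in whole heart cKO and 3.58 ± 2.82 in right ventricle cKO. It had 1.5 ± 0.253 TPM in left ventricle controls, 1.31 ± 0.165 in whole heart controls and 0.287 ± 0.0665 in right ventricle controls. The last step of that order was without overlap, and the overlaps were between whole heart and right ventricle cKO and between left ventricle and whole heart controls.

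Tiam2 had 12.9 ± 0.779 TPM in left ventricle cKO, 12.7 ± 1.53 in whole heart cKO and 8.02 ± 2.38 in right ventricle cKO. It had 3.42 ± 0.603 TPM in whole heart controls, 2.45 ± 0.598 in left ventricle controls and 1.4 ± 0.388 in right ventricle controls. The left ventricle and whole heart cKO groups overlapped, whereas right ventricle cKO stood clear of both sides of the order. Fstl4 had 6.27 ± 0.229 TPM in whole heart cKO, 5.62 ± 0.429 in left ventricle cKO and 4.0 ± 0.75 in right ventricle cKO, and 3.34 ± 0.0907, 2.54 ± 0.111 and 2.11 ± 0.194 TPM in whole heart, left and right ventricle controls. Right ventricle cKO and whole heart control libraries of Fstl4 overlapped, although each cKO group mean was above each control mean. Whole hearts hold atria and valves as well as ventricles, and the tissues were not tested against the whole heart.

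The chambers differed for 3 of the genes in control hearts. In controls, the left ventricle had more of Tmem163, Alox8 and Tiam2 than the right (edgeR, 16 ventricle libraries; 9.02% of genes were called higher and 12.0% lower on the left, 21.0% in all), by 2.19-fold (log2 1.13, SE 0.19, adjusted p = 0.000468), 4.02-fold (log2 2.01, SE 0.51, adjusted p = 0.00963) and 1.82-fold (log2 0.87, SE 0.16, adjusted p = 0.00118). In CPM all 4 left controls lay above all 4 right controls for each of these genes, as they did for 9.75% of genes, while in TPM the libraries overlapped for Tmem163 and Tiam2. Fstl4 was not called, with a log2 difference of 0.17 and a 95% interval of -0.05 to 0.39 (adjusted p = 0.269). The call of Tmem163 was lost with length-scaled counts (log2 0.82, adjusted p = 0.0559), and that of Tiam2 on log2 of TPM plus 1 (0.52, adjusted p = 0.0817), where the difference for Alox8 was 0.95.

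In cKO hearts all 4 genes were higher on the left, as were 14.5% of all genes, while 18.3% were lower (32.8% called in all). The difference was 1.85-fold for Tmem163 (log2 0.89, SE 0.13, adjusted p = 7.96e-05 by edgeR), 2.93-fold for Alox8 (log2 1.55, SE 0.32, adjusted p = 0.00146), 1.43-fold for Tiam2 (log2 0.51, SE 0.12, adjusted p = 0.00431) and 1.27-fold for Fstl4 (log2 0.34, SE 0.10, adjusted p = 0.0108). Without right ventricle cKO 1 the log2 differences were 1.05, 2.24, 0.65 and 0.45, each called. The left libraries of Tmem163, Alox8 and Tiam2 all lay above the right ones in CPM, an order found for 15.5% of genes, and those of Fstl4 overlapped by 1 right library at 20.74 CPM. Tiam2 lost its call with length-scaled counts (log2 0.56, adjusted p = 0.0563).

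The size of the cKO difference was not shown to differ between the ventricles. The left log2 fold change minus the right was -0.24 for Tmem163 (95% interval -0.73 to 0.24, adjusted p = 0.705 by edgeR), -0.45 for Alox8 (-1.75 to 0.84, 0.815), -0.35 for Tiam2 (-0.78 to 0.08, 0.476) and 0.17 for Fstl4 (-0.13 to 0.47, 0.652). Of all genes, 1.43% were called in this test, 0.462% as higher and 0.973% as lower. The intervals still hold sizeable differences for Alox8, whose sign turned to 0.23 without right ventricle cKO 1. The signs of Tmem163, Alox8 and Tiam2 also turned on log2 of TPM plus 1, to 0.25, 0.88 and 0.14.

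**Figure D2:**
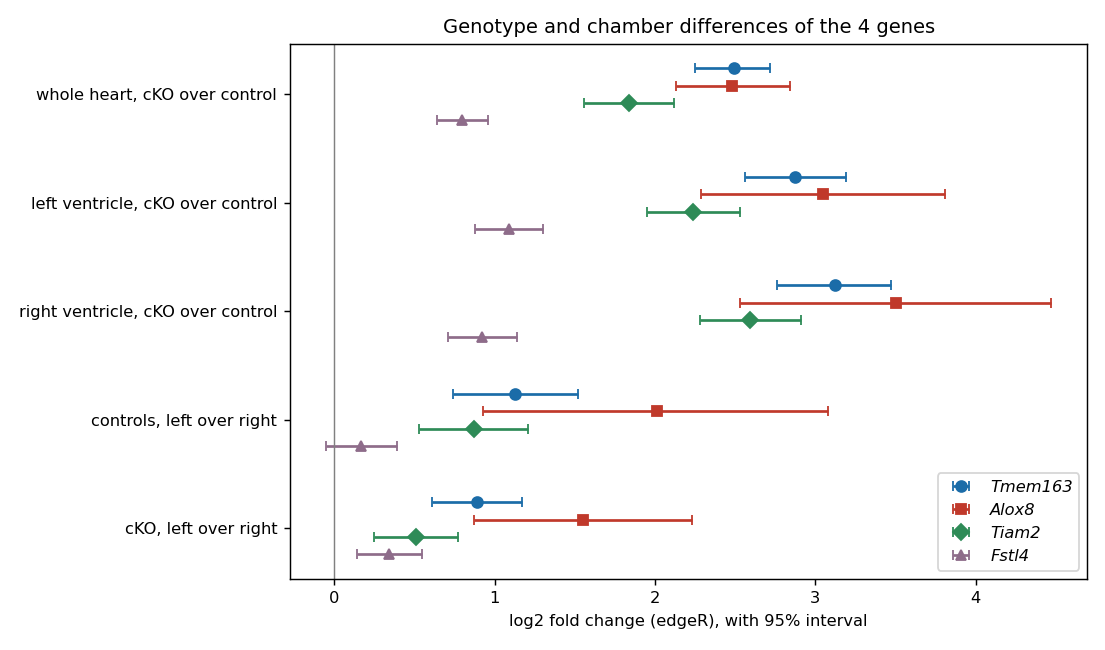
Log2 fold changes from edgeR with 95% intervals for the 4 genes, as cKO over control in each tissue and as left over right ventricle in each genotype. The intervals of cKO over control lie above 0 throughout, with those of the ventricles shown as a description, and Fstl4 in controls (0.17, -0.05 to 0.39) is the interval that holds 0.

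Right ventricle cKO 1 was the highest right ventricle cKO library for all 4 genes. It also had 21.11 TPM of Tbx5, a transcription factor gene higher in the left ventricle, against 11.95 to 17.44 TPM in the other 3 and 46.95 to 48.8 TPM in left ventricle cKO. Its level of Hand1, a gene of the left ventricle, was 7.08 TPM, within the 6.43 to 8.95 TPM of the other 3 and below the 35.73 to 51.24 TPM of left ventricle cKO. The summed TPM of 10 immune markers was 223 in that library against 140, 103 and 105 in the other 3. The summed TPM of 9 conduction and pacemaker markers was 97.7 against 82.3, 47.1 and 47.0. In right ventricle cKO the highest medians of these 2 lists were those of Lyz2 (immune, 72.9 TPM) and Cacna2d2 (conduction, 43.5 TPM). The part of these levels in the spread of the 4 genes was not tested.

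Most reads of each gene went to a transcript with the full coding sequence. Over all libraries Tmem163-203 held 85.56% of the Tmem163 reads, Alox8-201 held 98.58% of the Alox8 reads, and Fstl4 has 1 annotated transcript. Tiam2-202 held 64.24% and Tiam2-201 held 21.19% of the Tiam2 reads. The share of the leading transcript was compared between cKO and control in each ventricle by an exact two-sided permutation test on 4 against 4 libraries, whose smallest p is 0.0286. None of the 6 comparisons was called after adjustment over the 6. The 1 that reached the smallest p had an adjusted p of 0.171 by this permutation test. A single comparison could therefore not be called by itself, and no conclusion that the shares are unchanged is drawn.

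Tmem163-203 (2657 bases) had 84.4% of the reads in left ventricle cKO and 85.2% in the controls (exact p = 0.486, adjusted 0.686). On the right it had 84.0% and 75.5% (exact p = 0.0286, adjusted 0.171), with cKO libraries at 81.7% to 88.1% and controls at 67.0% to 80.2%. That is the smallest p the design allows. Tmem163-204, a noncoding transcript of 514 bases that shares 467 of them with Tmem163-203, held 9.49% of the reads. Because TPM divides by length, it made up 40.5% to 59.5% of the summed TPM of Tmem163 in left ventricle cKO libraries. It was at 0 in at least 2 of the 3 whole heart controls, with a median share of 0 and a highest of 13.0%. The TPM difference of Tmem163 in the whole heart (log2 3.22 with 0.1 added) was larger than that of the reads (2.49).

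Alox8-201 (3226 bases) held 96.9% to 98.4% of the Alox8 reads in left ventricle cKO libraries and at least 94.9% in the controls. The rest went almost wholly to Alox8-204, a retained intron transcript of 470 bases with 1.4% of all reads. The shares were 97.5% and 97.6% in the left ventricle (exact p = 0.886) and 99.2% and the whole in the right (exact p = 0.143, adjusted 0.286). Alox8-202, a second coding transcript, had no reads in any library, and retained introns are annotated transcripts that keep an intron.

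The split between the Tiam2 transcripts was not stable. Tiam2-202 and Tiam2-201 have the same 5145 coding bases and share 5571 bases, which leaves 154 bases found only in Tiam2-202 and 556 found only in Tiam2-201. In right ventricle controls the share of Tiam2-202 ran from 0.0% to 95.9% and that of Tiam2-201 from 0.0% to 87.2%, on 100 to 145 reads of the gene per library. The left ventricle was tighter, with Tiam2-202 at 58.2% in the cKO and 65.7% in the controls (exact p = 0.0571, adjusted 0.171). In the right ventricle the means were 64.4% and 50.5% (exact p = 0.571, adjusted 0.686). The sum of both full coding transcripts was 81.5% to 85.1% in left ventricle cKO and 83.0% to 93.8% in the controls, where the spread of Tiam2-202 alone was narrower, at 63.5% to 67.3%. On the right the sum was 81.6% to 94.9% for cKO libraries and 76.2% to 95.9% for controls. Tiam2-207, a noncoding transcript of 2131 bases that starts inside the gene, held 9.2% to 13.0% in left ventricle cKO libraries and 0.0% to 10.9% in the controls. The right ventricle went the other way in the mean, with 7.5% in the cKO (0.0% to 11.9%) and 11.4% in the controls (0.0% to 18.5%). In the whole heart the means were 5.9% and 5.4%.

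**Figure D3:**
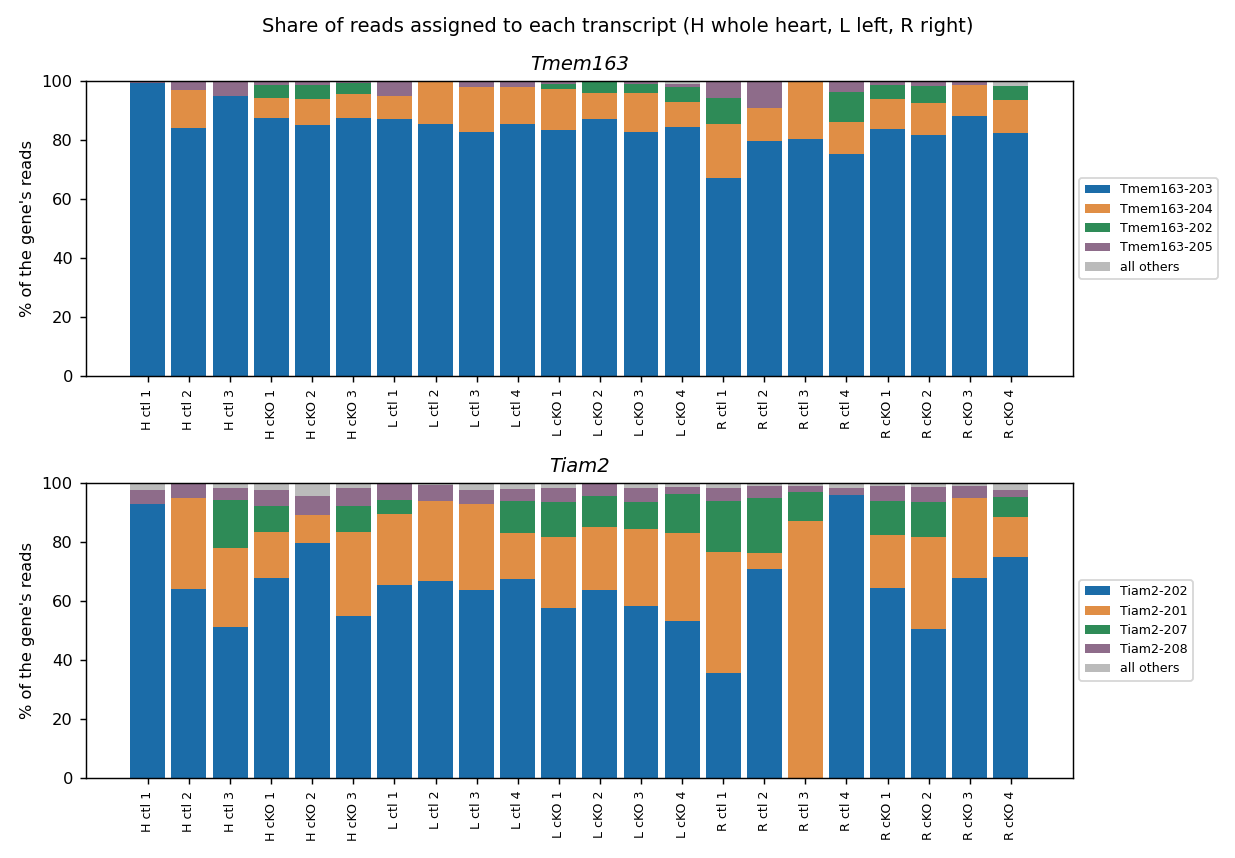
Share of each library's Tmem163 reads (upper panel) and Tiam2 reads (lower panel) that were assigned to the named transcripts, in percent, with 1 bar per library. Tmem163-203 (blue) fills 67.0% to 99.2% of every bar, while the blue and orange parts of the Tiam2 bars trade places among right ventricle controls.

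One neighbour of these genes moved strongly. Among the 15 protein-coding genes nearest to the 4 genes, at most 2 on each side, Gucy2e lies 20.3 kb from Alox8 and encodes a membrane guanylyl cyclase known from photoreceptors. It rose 4.22-fold in whole heart cKO (log2 2.08, SE 0.36, adjusted p = 0.021 by edgeR), 5.66-fold in the left ventricle (log2 2.5, SE 0.45, adjusted p = 0.000577) and 8.27-fold in the right (log2 3.05, SE 0.56, adjusted p = 0.00184). Its level was low, at 3.73, 3.43, 3.76 and 4.27 CPM in left ventricle cKO, against 0.07, 0.8, 0.69 and 1.01 CPM in their controls. On the right, cKO samples measured 3.22, 1.82, 1.24 and 0.73 CPM, against 0.39, 0.1, 0.09 and 0.28 CPM in their controls. The right ventricle cKO libraries stood in the same order as for Alox8, with cKO 1 highest and cKO 4 lowest. That order is not particular to these neighbours, since Tmem163 on chromosome 1 had it too. So did Epha4, with 64.63, 52.98, 42.09 and 41.63 CPM. For Tiam2 and Fstl4 cKO 1 was also highest, but cKO 3 was lowest. Without cKO 1 the fold of Gucy2e was 5.89 (adjusted p = 0.00753 by edgeR).

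On the other side of Alox8, Alox12b at 14.1 kb and Aloxe3 at 34.8 kb, lipoxygenases of the skin barrier, were at most 0.0237 and 1.39 TPM in any library, and Cntrob at 101.6 kb was not called in any tissue. Of the neighbours, 10 were tested in the ventricles: 2 were higher and 1 lower in the left, and 2 higher and 0 lower in the right, beside 25.6% and 10.3% of all genes called. In the whole heart 12 were tested, with 1 higher (Gucy2e) and 1 lower, beside 4.03% of all genes. The other calls were small and on the side of Fstl4. 9530068E07Rik, 355.9 kb away, had log2 fold changes of 0.31 in the left (adjusted p = 1.2e-05) and 0.17 in the right ventricle (adjusted p = 0.00653). Vdac1, a channel gene of the mitochondrial outer membrane at 375.2 kb, fell by 0.32 in the left ventricle (adjusted p = 0.000318) and by 0.17 in the whole heart (adjusted p = 0.0407).

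No neighbour of Tmem163 or Tiam2 was called, and Nox3 had 0 TPM in every library. Mgat5, which encodes a glycosyltransferase, overlaps the end of Tmem163 on the opposite strand, and it rose, with log2 fold changes of 0.26 in the whole heart, 0.23 in the left and 0.24 in the right ventricle (adjusted p = 0.0321, 0.0108 and 0.0171). Tfb1m, which overlaps the end of Tiam2 on the opposite strand, was not called in any tissue (adjusted p = 0.106 to 0.851). The kit marks strand per the labels' protocols, but whether the counting used strand is not given in the sources used here, so reads in these overlaps cannot be told apart with certainty.

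**Figure D4:**
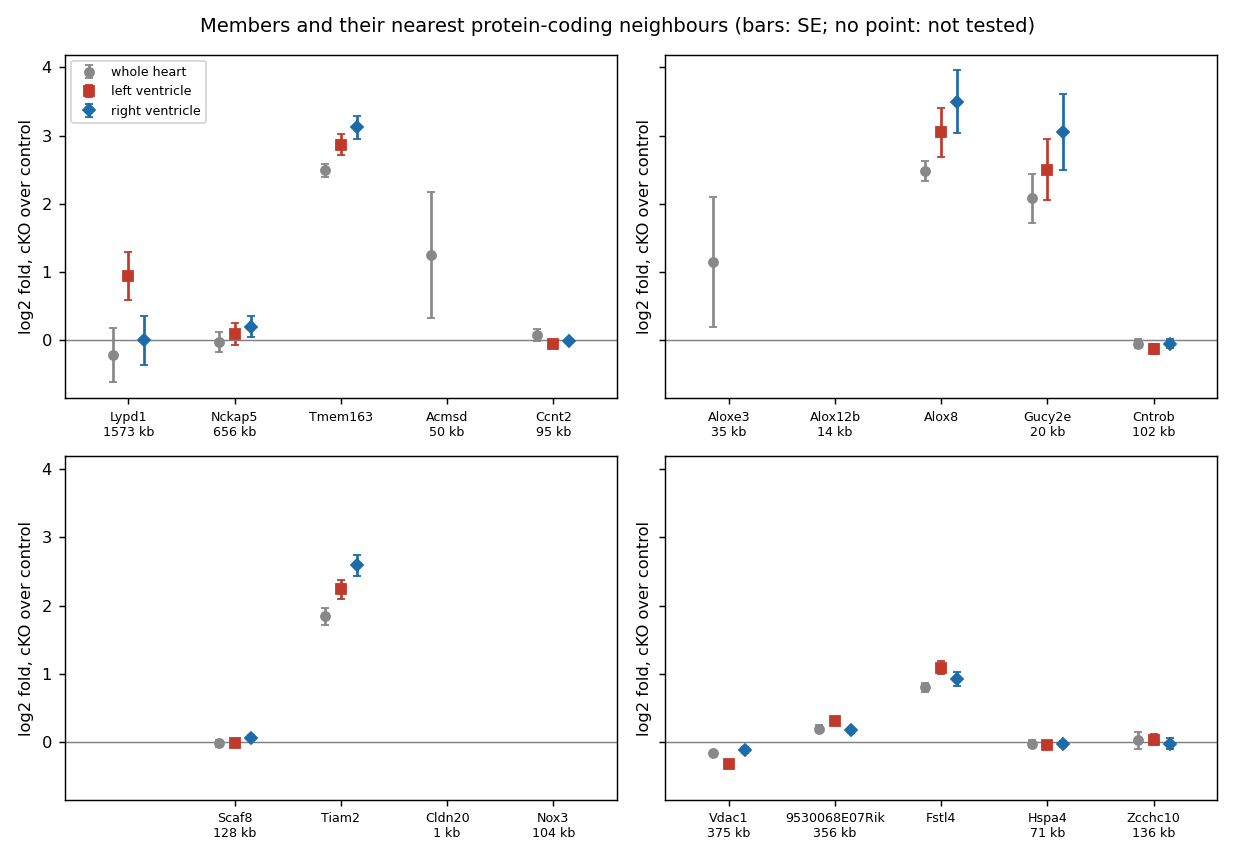
Log2 fold change, cKO over control, of each of the 4 genes (centre) and of its nearest non-overlapping protein-coding neighbours, in order along the chromosome with their distance in kb, for the whole heart and both ventricles; whiskers are SE, and genes without a point were not tested. Gucy2e, next to Alox8, has values of 2.08 to 3.05, while the neighbours of the other 3 genes lie near 0 or have wide errors.

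The genes with the nearest profiles to each of the 4 were sought among 12815 protein-coding genes, by the root mean square (RMS) difference of log2 CPM over the 22 libraries after each gene's own mean was taken off. The libraries and their genotypes are the same for all genes, so a likeness here is a description. Nearest to Tmem163 were Tiam2 (0.51), Mybphl (0.53), a myosin-binding protein gene known from the atria, and B4galnt3 (0.54). Mybphl had log2 fold changes of 2.28, 2.96 and 2.94 in the whole heart, left and right ventricle, but its difference between left and right was -0.09 in controls. Nearest to Alox8 were Tmem163 (0.60), Gucy2e (0.68) and Tiam2 (0.74). The gene beside Alox8 on the chromosome was thus also the second nearest in profile among the 12815.

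Nearest to Tiam2 were Epha4 (0.34), which encodes an ephrin receptor, Galnt14 (0.35) and the zinc importer gene Slc39a8 (0.40). Epha4 rose 3.02-fold in the whole heart, 5.08-fold in the left and 3.49-fold in the right ventricle (adjusted p = 6.25e-05, 2.58e-09 and 1.83e-07 by edgeR). Nearest to Fstl4 were Pard3b (0.19), a cell polarity gene, Col4a6 (0.19), a basement membrane collagen gene, and Mme (0.21), which encodes the membrane protease neprilysin. These 3 rose by 0.57, 0.67 and 0.84 in log2 in the whole heart (adjusted p = 0.00868, 0.00935 and 0.0021). The RMS difference of Fstl4 was 0.72 to Tiam2, 1.07 to Tmem163 and 1.28 to Alox8, against 0.51 between Tmem163 and Tiam2, 0.60 between Tmem163 and Alox8, and 0.74 between Alox8 and Tiam2. This measure depends on the size of each profile as well as its shape. The RMS of the profile itself was 0.51 for Fstl4, 1.19 for Tiam2, 1.52 for Tmem163 and 1.74 for Alox8. Differences are therefore not comparable between genes that move little and genes that move much.

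Among 25 tested genes of zinc transport and storage, 1 rose and 1 fell in the whole heart, 5 rose and 1 fell in the left ventricle, and 4 rose and 2 fell in the right. Of all genes 4.03%, 25.6% and 10.3% were called in these tissues. Their median log2 fold changes were 0.12, 0.08 and 0.02, and that of all genes was 0.01 or nearer to 0 in each tissue. Slc39a8, the zinc importer ZIP8, had 53.93, 55.65 and 60.41 CPM in whole heart cKO and 18.07, 18.94 and 20.55 CPM in the controls. It rose 2.95-fold there, 3.75-fold in the left and 3.24-fold in the right ventricle (adjusted p = 6.62e-05, 6.97e-10 and 3.47e-09 by edgeR). It was not called between the left and right ventricle of controls (log2 0.15, 95% interval -0.05 to 0.36, adjusted p = 0.301). Slc30a3, a zinc carrier of synaptic vesicles, was low and rose 7.17-fold in the left and 3.95-fold in the right ventricle (adjusted p = 3.05e-05 and 0.0118 by edgeR). Right ventricle cKO libraries held 27, 9, 4 and 12 of its reads, against 2 to 5 per control, and in CPM cKO 3 lay below control 4. Without right ventricle cKO 1 that call was lost (2.69-fold, adjusted p = 0.0532). In the whole heart the log2 fold change of Slc30a3 was 2.55 and did not pass (adjusted p = 0.218 by edgeR), on 0 to 16 reads per control. Slc39a13 rose by 0.51 and 0.65 in log2 in the left and right ventricle.

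The metallothionein gene Mt1, whose product binds zinc, fell in each tissue, with log2 fold changes of -0.66 in the whole heart, -1.0 on the left and -0.55 on the right (adjusted p = 0.0401, 5.92e-05 and 0.0119 by edgeR). Its left ventricle libraries had 11.48, 7.26, 10.53 and 9.15 CPM in the cKO and 20.32, 16.45, 18.38 and 21.85 CPM in the controls, without overlap. Mt2 fell by 0.77 in the right ventricle (adjusted p = 0.0215) and had values of -0.56 in the left and 0.14 in the whole heart that did not pass. The zinc exporter gene Slc30a1 rose by 0.26 in the left ventricle (adjusted p = 0.0453), and its values of 0.22 and 0.08 in the other tissues did not pass.

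Of 30 other lipoxygenase and eicosanoid genes tested in the whole heart 0 were called by edgeR and 0 by DESeq2 (at an unadjusted p under 0.05, 2 were higher and 2 lower), while 28 were tested in the ventricles, where 2 rose and 5 fell in the left and 2 rose and 2 fell in the right, beside 25.6% and 10.3% of all genes called. The medians were 0.12, 0.15 and 0.03. Alox5, the lipoxygenase of leukotriene synthesis, fell by 1.21 on the log2 scale in the left ventricle (adjusted p = 2.84e-05 by edgeR), from 2.87, 3.26, 3.75 and 3.67 CPM in the controls to 1.72, 1.35, 1.37 and 1.42 CPM. Its values of -0.22 in the whole heart and -0.18 in the right ventricle did not pass, and the difference between the ventricles was called (log2 -1.03, adjusted p = 0.0202). Ephx2, an epoxide hydrolase gene, fell by 0.79 in the left and 0.38 in the right ventricle, and the prostaglandin D synthase gene Ptgds by 1.34 and 0.86. Alox12 was at 0.542 to 1.06 TPM in the group means and was not called. In the right ventricle Lta4h and Ptges rose by 0.36 and 0.95.

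Of 53 genes of Rac activation tested in the whole heart 0 rose and 3 fell by edgeR (2 and 5 by DESeq2, and 5 and 6 at an unadjusted p under 0.05), and of 52 in the ventricles 9 rose and 8 fell in the left and 3 rose and 4 fell in the right, with medians of 0.04, 0.0 and -0.05. The share of all genes called was 4.03% in the whole heart, 25.6% in the left and 10.3% in the right ventricle. Tiam1, the close relative of Tiam2, had log2 fold changes of 0.06, 0.05 and -0.06 in the whole heart, left and right ventricle and was not called (adjusted p = 0.705 to 0.743). Rac1 itself was not called either, at 0.01, 0.05 and 0.0, with group means of 230 to 252 TPM. Arhgef6, another Rac exchange factor gene, fell in each tissue, by 0.41, 0.79 and 0.60 in log2 (adjusted p = 0.0145, 4.24e-08 and 2.15e-06). Kalrn, a further exchange factor gene, fell by 0.30, 0.41 and 0.29, and Cyfip2, of the actin regulator complex that Rac binds, fell by 0.62 in the whole heart and 0.69 in the left ventricle.

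Of 21 tested genes of the follistatin and SPARC families and their ligands and receptors, 4 rose and 0 fell in the whole heart (7 and 0 by DESeq2, and 8 and 1 at an unadjusted p under 0.05), 9 rose and 2 fell in the left ventricle, and 4 rose and 2 fell in the right. Of all genes 1.96% rose and 2.07% fell in the whole heart, 12.3% and 13.4% in the left, and 6.12% and 4.19% in the right ventricle. The medians of the list were 0.1, 0.2 and 0.02. Fst, the activin antagonist follistatin, rose 3.2-fold in the left ventricle (log2 1.68, adjusted p = 4.77e-05 by edgeR) and 2.02-fold in the right (log2 1.01, adjusted p = 0.0229), and in the whole heart its log2 fold change of 0.53 did not pass (adjusted p = 0.061). The right ventricle call rests on few reads and was lost without cKO 1 (adjusted p = 0.0612), while without control 2, the highest control at 2.53 CPM, the log2 fold change was 1.57. Sparc, which encodes an abundant matrix glycoprotein, rose by 0.22, 0.36 and 0.23 in log2, and Smoc1 by 0.52, 0.55 and 0.41. Fstl1 rose by 0.23 in the whole heart and 0.35 in the left ventricle, Fstl3 was not called, and Fstl5 had at most 0.0304 TPM in a group mean.

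**Figure D5:**
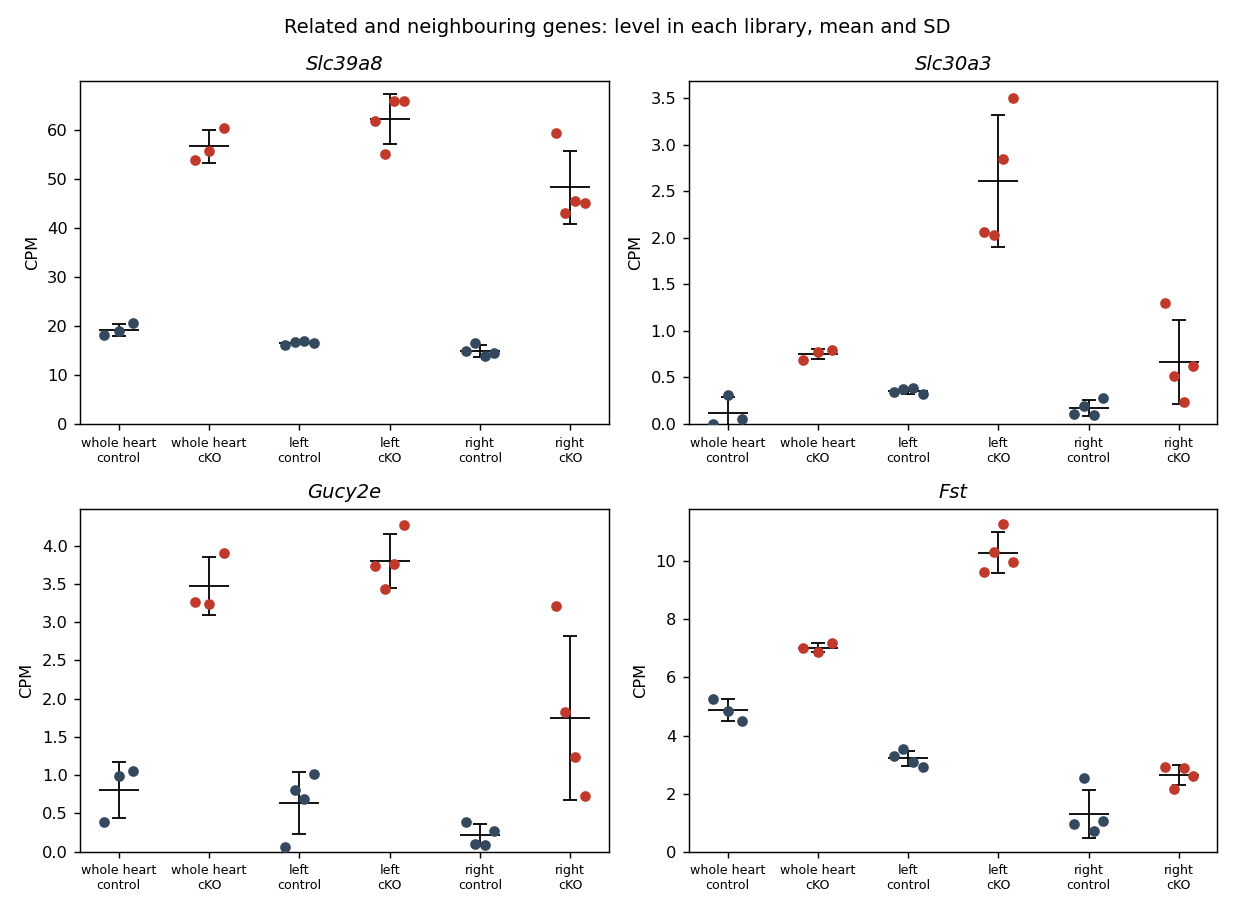
CPM of Slc39a8, Slc30a3, Gucy2e and Fst in each of the 22 libraries (points; dark blue control, red cKO), with group mean and SD, on linear axes from 0. Slc39a8 separates the genotypes in every tissue, as with 55.12 to 65.94 CPM against 16.14 to 16.92 in the left ventricle, whereas Fst overlaps in the right ventricle through 1 control at 2.53 CPM.

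Several list counts depended on the libraries that stand apart. Without whole heart control 1, 2 zinc genes and 8 follistatin and SPARC genes rose in the whole heart, 2 Rac genes rose, and 1 eicosanoid gene fell. Without right ventricle control 2, 7 follistatin and SPARC genes rose in the right ventricle. Without right ventricle cKO 1 this count was 2, with 1 eicosanoid gene rising, 1 falling, and 1 zinc gene falling. The right ventricle calls of Ptgds, Mt2, Ptges and Kalrn were lost without cKO 1 (adjusted p = 0.0829, 0.057, 0.054 and 0.0542 by edgeR), as was that of Vdac1 in the whole heart without control 1 (adjusted p = 0.0507). These runs were chosen after the data were seen.

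Markers of several cell types moved with the genotype beside the 4 genes. In bulk RNA a change in the number of cells of a type and a change in RNA per cell cannot be told apart. Of 13 atrial cardiomyocyte markers 7, 8 and 8 rose in the whole heart, left and right ventricle, among them Myl7 and Dkk3, and 0 fell in any tissue by edgeR, by DESeq2 or at an unadjusted p under 0.05. Their summed level was 5040 to 5130 TPM in whole heart cKO against 3470 to 3920 TPM in controls, 5010 to 5850 against 3430 to 3650 in the left ventricle, and 6000 to 6300 against 4260 to 4620 in the right. Sln, a defining atrial gene, was near 0 in the ventricles, with group medians of 0.0865 to 0.754 TPM. Of 10 ventricular cardiomyocyte markers 6 fell in the whole heart, at 25900 to 27600 TPM against 30000 to 31900, and 8 in the left ventricle, at 38500 to 45300 against 48800 to 51800. Most of the left ventricle difference in these sums was in Myl2, with medians of 20300 TPM in the cKO against 27700 in controls. The medians of Actc1 and Mpped2 were higher in the cKO in each tissue. In the right ventricle 1 of the 10 rose, at 50900 to 57300 TPM against 48800 to 55700, with median sums of 52400 and 55500. The 48800 TPM was control 2, and the other right ventricle controls had 55500 to 55700. Without right ventricle control 2 the number that fell there was 4, and without cKO 1 the number that rose was 0.

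Of 10 immune markers 1, 4 and 1 rose, with Lyz2 in each tissue, and the sums were 207 to 241 TPM against 107 to 112, 175 to 206 against 96.6 to 135, and 103 to 223 against 69.5 to 83.4. Most of the difference in these sums was in Lyz2. Its medians were 143 against 46.4 TPM in the whole heart, 114 against 44.4 in the left and 72.9 against 28.1 in the right ventricle. In the right ventricle the medians of Fcer1g, C1qb and Mrc1 were lower in the cKO, and those of Csf1r and Cx3cr1 were higher. Of the conduction and pacemaker markers 3 of 9 rose in the whole heart and 2 of 7 in each ventricle, with 1 that fell in the left. Their sums were 147 to 173 TPM against controls of 71.9 and upward that lay below every cKO library, 74.9 to 85.6 against at most 61.2, and 47.0 to 97.7 against 26.5 to 37.0, while Isl1 and Shox2 had ventricle medians under 1 TPM. Most of the difference in these sums was in Cacna2d2, with medians of 86.2 TPM in whole heart cKO against 27.3 in controls. Its medians were 46.9 against 16.7 TPM in the left ventricle and 43.5 against 12.3 in the right. Hcn4 had medians of 8.54 against 9.4 TPM in the left and 3.14 against 3.22 in the right ventricle. In each tissue the medians of Tbx18 were lower in the cKO, and those of Tbx3 and Rgs6 were higher. Of 10 endothelial and endocardial markers 2, 8 and 3 rose (5 in the right ventricle without control 2), at 686 to 775 TPM against 645 to 658, 825 to 916 against 667 to 700, and 703 to 728 against 621 to 678. Of 9 epicardial markers 0, 6 and 1 rose, with sums that overlapped in the whole heart and right ventricle and were 242 to 265 against 182 to 197 TPM in the left. At an unadjusted p under 0.05, 2 epicardial markers were higher in the whole heart, and DESeq2 called 1.

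Of 10 mesenchymal markers 0, 2 and 0 rose, at 1890 to 2110 TPM against 1600 to 1630, 779 to 939 against 593 to 924, and 533 to 670 against 523 to 1240. The 1240 TPM was right ventricle control 2, and the other right ventricle controls had 523 to 568 TPM. In the whole heart 5 of them were higher at an unadjusted p under 0.05 and 4 by DESeq2, and in the right ventricle 0 by either. Of 10 erythroid markers 0, 1 and 4 rose by edgeR, with sums that overlapped in the whole heart and in both ventricles. The right ventricle count of 4 was 0 without control 2 and 1 without cKO 1. At an unadjusted p under 0.05, 7 were higher in the left and 8 in the right ventricle, and 0 were lower. DESeq2 called 1 and 3 as higher there. The median log2 fold changes of the list were 0.74 in the left and 0.95 in the right ventricle. Of the neuronal and neural crest markers 0 rose and 0, 1 and 1 fell by edgeR, while 1 was lower in the whole heart by DESeq2 and at an unadjusted p under 0.05. Their sums were 39.3 to 50.4 TPM against 44.3 to 55.0, 24.5 to 31.7 against 33.3 to 39.6, and 23.3 to 27.0 against 31.2 to 44.3, with Sox10 at or near 0 in the ventricles. The part of these cell types in the levels of the 4 genes was not tested.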

How the data were processed

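The 22 libraries were made from TRIzol RNA with a stranded mRNA kit, per the labels' protocols. Reads were quantified by the authors with Salmon. The submitters' processing notes give its version as 1.2.1 and also name DESeq2 1.22.2 and the builds GRCm38.p6 and mm10. The deposited files hold, for 140658 transcripts, estimated counts that were not scaled between libraries, and TPM, which the authors' program scales to transcript length and library. They also hold effective lengths, used for length-scaled counts.

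Transcripts were matched by identifier without version to GENCODE M21 (140137 found; the 521 without a match, up to 0.204% of the reads of any library, were dropped), and estimated counts and TPM were summed per gene. Counts were rounded and tested with edgeR 4.0.16 (R 4.3.3; TMM, filterByExpr, quasi-likelihood F test, Benjamini-Hochberg over all genes tested). The 6 whole heart libraries were fitted alone and the 16 ventricle libraries with 4 group means. SE is the log2 fold change over the root of F. CPM are on TMM library sizes. Transcript shares were compared by exact permutation. limma 3.58.1 was used on log2 TPM and DESeq2 1.42.0 on counts as alternatives. The tests were checked on simulated data.

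The 4 genes, the gene lists and the markers were chosen with earlier results of these data known. Genes named are the 4, Prdm16, the 3 nearest profiles of each among protein-coding genes averaging 1 CPM or more (Xist, Y-linked and clone-like names left out), the 2 nearest protein-coding neighbours on each side, fixed relatives, and up to 3 genes of each list with the smallest p. Tbx5, Hand1, Meox1 and the markers named were chosen after their values were seen. The 53 Rac activation genes found are of 54 listed. Promoter sequences are from RefSeq. Fstl4 has 1 transcript, so 6 rather than 8 share tests were made. The replicate numbers were not taken as pairs, since in no set was every correlation between same-numbered libraries over 0.1. The cKO ventricles came nearest, at 0.05 to 0.29. Left and right libraries of the cKO may therefore not be independent, which their comparison does not allow for.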

Additional observations from a re-analysis of the deposited data

How the results depend on the processing

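The 4 whole heart calls and the 7 calls between ventricles held when each library was left out. Fstl4 in the whole heart was lost on TPM (log2 0.74 with 1 added, 0.89 with 0.1 added). With 1 added to TPM the description was 2.55 for Alox8 and 0.90 for Fstl4 in the left ventricle, and 2.65, 1.66, 1.88 and 0.67 for Tmem163, Alox8, Tiam2 and Fstl4 in the right; the added 1 shrinks differences of low genes. Lost calls between ventricles were Tmem163 in controls (0.82) and Tiam2 in the cKO (0.56) with length-scaled counts, and Tiam2 in controls (0.52) with 1 added to TPM. The cause of the losses with length-scaled counts was not tested.

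The difference between ventricles in the cKO effect, not called in any of these fits, changed sign for Tmem163 (0.25 and 0.15 with 1 and 0.1 added to TPM, 0.11 with length-scaled counts), Alox8 (0.88 and 0.11) and Tiam2 (0.14 with 1 added). Leaving out each library gave -0.69 to 0.23 for Alox8. The difference in the share of Alox8-201 in the left ventricle ran from -1.0 to 0.7 percentage points and that of Tiam2-202 in the right from -3.0 to 29.0, the lowest without right ventricle control 3.

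Same-numbered cKO and control libraries did not deviate together (correlations -0.26 to -0.01 in the whole heart, -0.01 to 0.08 in the left and -0.04 to 0.18 in the right ventricle; 0, 2 and 2 pairs were best with their own number). Between same-numbered left and right ventricles the correlations were -0.12 to 0.1 in controls and 0.05 to 0.29 in the cKO, where 3 of 4 pairs were best with their own number and other pairs had -0.2 to 0.08, a hint from the data only. A replicate block changed no call of the 4 genes (Fstl4 in the whole heart 0.80, adjusted p = 0.0256 by edgeR) and moved the whole heart count from 773 to 218 genes.

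Counts of all genes called moved by over 1.5 times. In the whole heart they were 1728 with DESeq2, 82 and 71 on TPM, 135 with length-scaled counts, 2012 with all 22 libraries and 184 to 1292 leaving out each, the highest without control 1. In the left ventricle 4216 became 2637 and 2575 on TPM and 2684 length-scaled. In the right 1696 became 721, 741 and 829, and 1052 with those groups alone. Left against right became 1387, 1411 and 1693 of 3462 in controls, and 3205 of 5398 length-scaled in the cKO. The difference in the cKO effect had 466 with DESeq2, 46, 27 and 64 in place of 236, and 125 to 358 leaving out each library, the highest without right ventricle control 2. Depth limits Alox8 in the right ventricle, at 11 to 21 control reads, and more so Gucy2e and Slc30a3, at 2 to 7 and 2 to 5.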
